A study of Homo sapiens with 6 samples.

Results

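The protein subunits of the mitochondrial respiratory chain and of ATP synthase were followed in NB4 cells with and without arsenic trioxide. Members were chosen by gene symbol alone: nuclear NDUF, SDH, UQCR, COX and ATP5 genes, and the protein genes of the mitochondrial DNA, leaving out names that mark pseudogenes, antisense RNAs or readthrough transcripts. The rule took 95 of the 23858 genes listed, 82 in the nuclear genome and 13 in the mitochondrial genome. By symbol, complex I had 37 nuclear and 7 mitochondrial members, complex II 4 nuclear members, complex III 9 and 1, complex IV 13 and 3, and complex V, the ATP synthase, 19 and 2. A few symbols fit the rule without being subunits of the complex they are counted under. ATP5S and ATP5SL are assembly-related proteins, ATP5J2LP is annotated as a processed pseudogene, UQCRHL is a retrocopy of UQCRH, COX7A2L joins supercomplexes, and NDUFA4 is now assigned to complex IV but is counted here under complex I.

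NB4 is an established human cell line from acute promyelocytic leukaemia, with the PML-RARA fusion. The cells were left as controls (3 libraries) or treated for 6 h with arsenic trioxide (3 libraries), a drug known to trigger breakdown of the PML-RARA protein. The labels name no dose and no other agent in either group. The labels do not say whether the 3 libraries of a group came from separate cultures, so the p-values take in no more than the spread among these libraries, which may be technical.

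Oxidative phosphorylation is built from parts encoded in both genomes. Complexes I and II pass electrons from NADH and succinate to ubiquinone, complexes III and IV carry them on to cytochrome c and oxygen, and complex V uses the resulting proton gradient to make ATP. Complex II is wholly nuclear-encoded, whereas the other complexes join nuclear subunits with a few hydrophobic subunits whose mRNAs are copied from the mitochondrial DNA by its own polymerase, POLRMT. Nuclear subunit genes are known for shared promoter elements bound by NRF1, the GABP members of the ETS family and YY1, and for coactivators of the PGC-1 family.

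Expression was given as RPKM, which divides reads by exon length and by library depth, from 19361333 to 22609019 reads a library. Of all genes, 16803 had a mean of at least 1 RPKM and were tested, and 25.4% of them passed an adjusted p of 0.05 with limma-trend on log2(RPKM + 1), 12.0% higher and 13.4% lower after arsenic trioxide. The promyelocyte granule gene MPO stood at 540.3 to 1071 RPKM in the 6 libraries and the myeloid marker CD33 at 12.8 to 16.8 RPKM. ELANE, another gene of this stage, was not analysed here. Of the T cell markers CD3D reached 4.22 RPKM and TRAC 9.46 RPKM, the epithelial marker EPCAM reached 6.72 RPKM, and the monocyte marker CD14 lay between 0 and 0.235 RPKM. On the second principal component, which held 15.2% of the variance, control replicate 1 and arsenic trioxide replicate 3 stood apart from the other libraries, and values that rest on them are given below with and without them.

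The respiratory chain mRNAs differed little between the groups. Of the 92 members tested, 2 rose (NDUFA12 and NDUFB1), 4 fell (ATP5G1, NDUFA8, NDUFV3 and UQCR11) and 86 did not pass, so that 6.52% were called, against 25.4% of all genes tested. No member reached a 2-fold difference: the fitted log2 changes ran from -0.52 to 0.32. Their median size was 0.09 on the log2 scale, against 0.25 over all genes tested. The range of RPKM did not overlap between groups for 15 members (16.3%), against 44.6% of all genes tested. For 86 members (93.5%) the whole 95% interval of the change lay within 1.5-fold in either direction, which held for 49.0% of all genes tested. These intervals are on the log2(RPKM + 1) scale, where the added 1 makes the limit easier to meet for genes near 1 RPKM. Among genes at 10 RPKM or more on average, where the spread is smaller, 5 of 70 members (7.14%) were called and 35.9% of all such genes, and the interval lay within 1.5-fold for 97.1% of members and 69.3% of all such genes. In bulk RNA, fewer cells with an mRNA and less of it per cell cannot be told apart.

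**Figure D1:**
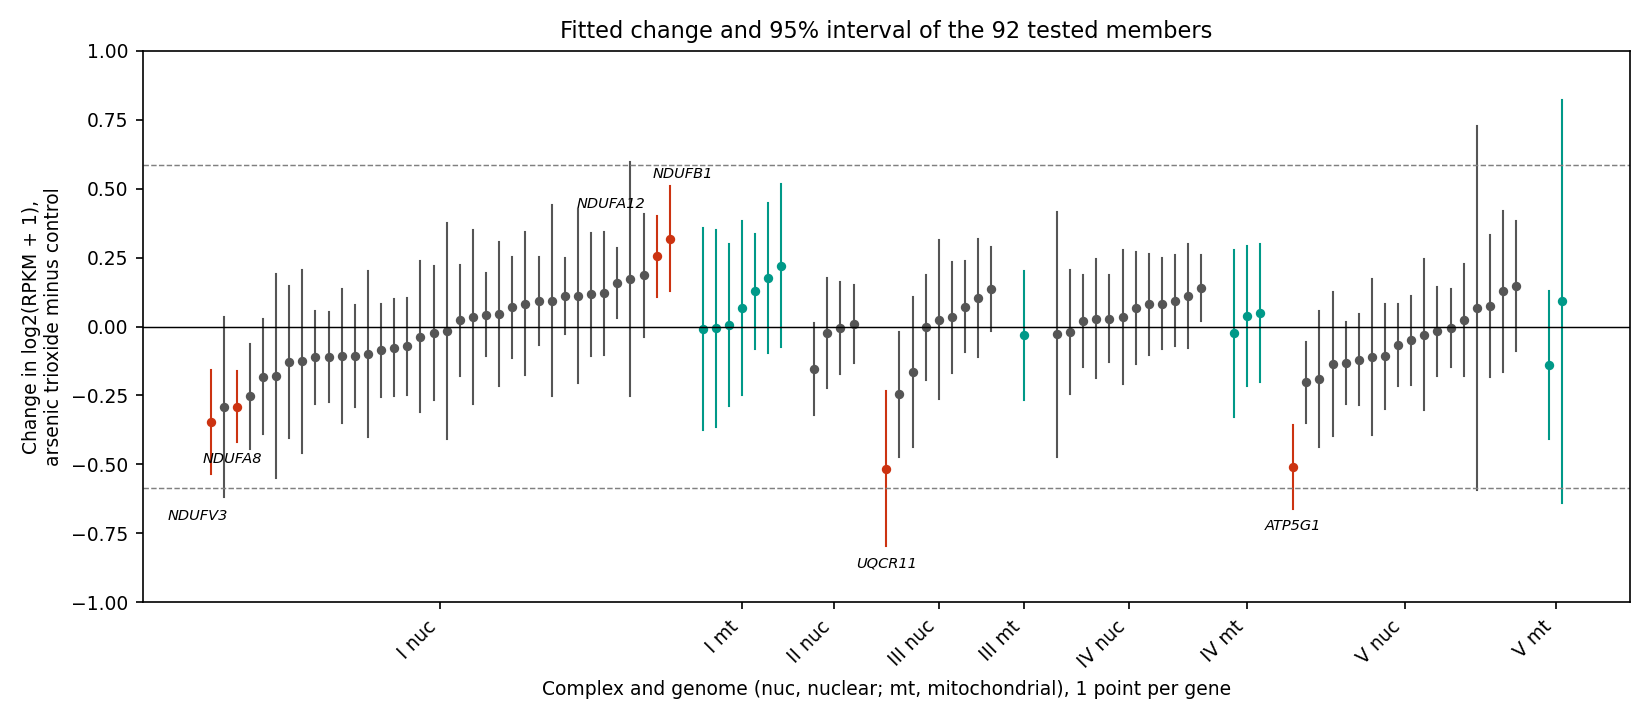
Fitted change (arsenic trioxide minus control, log2 of RPKM + 1) of each tested member, grouped by complex and genome; points are estimates, bars 95% intervals, red the 6 called members, grey other nuclear members and green mitochondrial members, and dashed lines mark a 1.5-fold change. Most intervals cross 0 and stay inside the dashed lines, and the called members lie between -0.52 and 0.32.

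Against 25.4% of all genes tested, limma-trend called 0 of the 13 mitochondrially encoded subunits. By RPKM, 12 of them lay above every nuclear member, and MT-ATP8 lay below the nuclear ATP5B. At an unadjusted p under 0.05 the count was also 0, while limma-voom on recovered reads called 1, MT-ND1. Their summed level was 16165, 17881 and 20259 RPKM in the controls and 18098, 19590 and 18273 RPKM after arsenic trioxide. The treated libraries therefore lay inside the range of the controls, with means of 18102 ± 2056 and 18654 ± 815.5 RPKM (SD, n = 3 each). As a share of all counted reads these genes took 1.62%, 1.78% and 1.996% in the controls and 1.82%, 1.94% and 1.83% after treatment, which also overlap.

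MT-CO1, the catalytic subunit of cytochrome c oxidase (mitochondrial DNA 5904 to 7445, plus strand), had the highest level, with 2168, 2209 and 2428 RPKM in the controls and 2360, 2285 and 2383 RPKM after treatment. Its partners MT-CO2, which takes up electrons from cytochrome c, and MT-CO3 stood at means of 1539 and 1822 RPKM over the 6 libraries. Among the membrane-arm subunits of complex I, MT-ND4 had a mean of 2072 RPKM, MT-ND1 1955, MT-ND2 1473, MT-ND5 1310, MT-ND4L 1096, MT-ND6 1058 and MT-ND3 622.3 RPKM. MT-CYB, the only mitochondrial subunit of complex III, had 1120 RPKM. The proton-channel subunit MT-ATP6 had 1767 RPKM and MT-ATP8, an accessory part of the same membrane sector, only 237.2 RPKM. The order of neighbours held in 3 to 6 of the 6 libraries: MT-CYB lay above MT-ND4L in 3 of 6, so these 2 do not differ beyond their spread, and MT-ND1 lay above MT-CO3 in 4 of 6. MT-ND3 was above MT-ATP8 in 6 of 6.

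Among these 13 genes the fitted log2 changes ran from -0.14 for MT-ATP6 to 0.22 for MT-ND1. MT-ND1 had 1628, 1716 and 2091 RPKM in the controls and 2155, 2101 and 2038 RPKM after treatment, so control replicate 3 lay inside the treated range. Its log2 difference of 0.22 (95% interval -0.08 to 0.52) had an adjusted p of 0.238 with limma-trend and of 0.0468 with limma-voom. MT-ATP6 had 1632, 1918 and 2015 RPKM against 1640, 1725 and 1674 RPKM, which overlap, with an adjusted p of 0.410 (limma-trend). The interval lay within 1.5-fold for 12 of the 13. The exception was MT-ATP8, with 162.6, 192.4 and 343.4 RPKM in the controls, 172.4, 304.0 and 248.2 RPKM after treatment and an interval from -0.64 to 0.82.

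The mitochondrial members moved together between libraries of one group. Control replicate 1 held the lowest control value for 13 of 13 and control replicate 3 the highest for 13 of 13, and arsenic trioxide replicate 2 was the highest treated library for 11 of 13. The fitted directions of the mitochondrial members followed these libraries: 8 of 13 changes were positive with all libraries, 4 without control replicate 1 and 12 without control replicate 3. With upper-quartile scaling 12 were positive, and no direction for the group is given here. The median standard error of the change was 0.124 in the mitochondrial members and 0.085 in the nuclear members, so that smaller differences could be seen in the nuclear ones.

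Several features of the mitochondrial DNA limit these levels. MT-ATP8 and MT-ATP6 share 46 bases (8527 to 8572), MT-ND4L and MT-ND4 share 7 and MT-ATP6 and MT-CO3 share 1, and reads there cannot be given to one gene. The library kit does not mark strand, so reads of MT-ND6, the only one of these genes on the minus strand (14149 to 14673), cannot be told from reads of the opposite strand. Duplicate reads had been removed by the authors. The mitochondrial genes kept 3.28 to 54.9 reads per base of exon in a library, against 6.58 to 7.89 for ATP5B, the nuclear member with the highest mean RPKM, and how far duplicate removal lowered such levels was not tested.

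**Figure D2:**
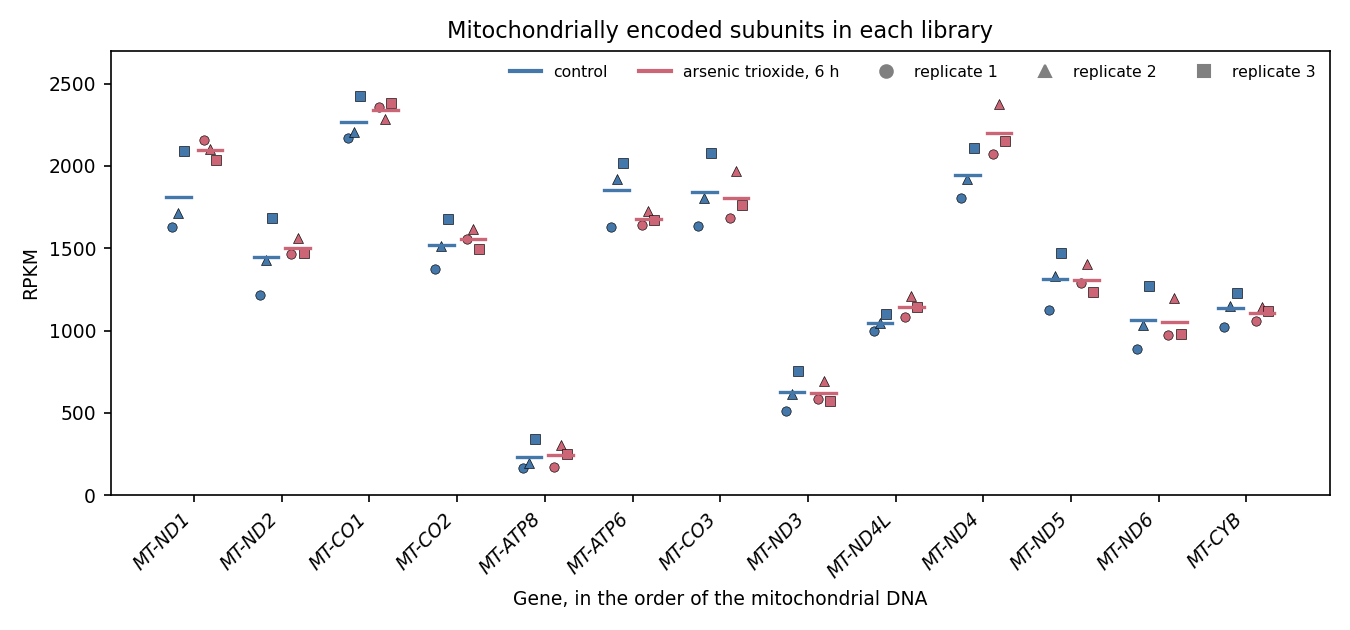
Level (RPKM) of the 13 mitochondrially encoded subunits in each library, in the order of the mitochondrial DNA; blue is control, red is arsenic trioxide for 6 h, symbols are replicates and bars group means. The groups overlap for all 13 genes, and control replicate 1 is the lowest control throughout.

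Complex I, the NADH dehydrogenase, had 36 nuclear members tested, of which 2 rose and 2 fell (11.1%, against 25.4% of all genes tested), with a median log2 change of -0.02. These are 36 of the 79 nuclear members tested in all. The 4 called members are among its 30 accessory subunits, which surround the catalytic core. Of the 6 core subunits tested, which carry the flavin and the iron-sulfur clusters, 0 were called by limma-trend or limma-voom, and 1 had an unadjusted p under 0.05.

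NDUFA8 (chromosome 9, 122144058 to 122159819, minus strand), an accessory subunit with twin CX9C motifs on the intermembrane-space side, fell. It had 55.6, 52.5 and 55.7 RPKM in the controls and 44.0, 46.4 and 43.0 RPKM after treatment, so every treated library lay below every control. The log2 change was -0.29 ± 0.05 (SE), with an adjusted p of 0.0103 (limma-trend). It stayed called when any 1 library was left out and was lost when both libraries that stand apart were left out, with an adjusted p of 0.0587.

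NDUFV3 (chromosome 21, 42879644 to 42913304, plus strand), an accessory subunit attached to the NADH-oxidizing module, had 11.3, 12.6 and 12.6 RPKM in the controls and 9.03, 9.98 and 9.09 RPKM after treatment. The groups did not overlap, and the log2 change was -0.35 ± 0.08 (SE) with an adjusted p of 0.0208 (limma-trend). Leaving out control replicate 2 or 3, or arsenic trioxide replicate 1 or 3, moved the adjusted p to between 0.0528 and 0.0750, and leaving out both libraries that stand apart gave 0.0507.

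NDUFA12 (chromosome 12, 94897055 to 95003770, minus strand), which joins late where the peripheral arm meets the NADH module, rose. It had 20.6, 20.9 and 22.3 RPKM in the controls and 26.4, 24.3 and 26.0 RPKM after treatment. NDUFB1 (chromosome 14, 92116122 to 92121917, minus strand), a small subunit of the membrane arm, rose from 8.75, 9.22 and 10.0 RPKM to 11.2, 12.2 and 12.2 RPKM. All treated libraries lay above all controls for both genes, with log2 changes of 0.25 ± 0.06 and 0.32 ± 0.08 (SE) and adjusted p of 0.0250 and 0.0278 (limma-trend). Neither call stood when control replicate 1, control replicate 2 or arsenic trioxide replicate 3 was left out. NDUFA12 was also lost without arsenic trioxide replicate 1 and NDUFB1 without arsenic trioxide replicate 2. The adjusted p without single libraries reached 0.0792 for NDUFA12 and 0.0808 for NDUFB1, and with both libraries that stand apart left out it was 0.116 and 0.126.

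The nuclear member of complex I with the highest mean RPKM was NDUFS5, another CX9C accessory subunit. Its control replicate 1, at 75.7 RPKM, was below the other controls at 103.3 and 108.8 RPKM, and the treated libraries had 102.3, 107.5 and 97.8 RPKM, so the groups overlapped. NDUFS7, a core subunit holding an iron-sulfur cluster, did not reach the filter, with 0.907, 0.850 and 0.763 RPKM in the controls and 0.869, 0.852 and 0.966 RPKM after treatment. Its low RPKM goes with an exon length of 7533 bases summed over all annotated transcripts, where the principal transcript has 1039. Among the 6 core subunits tested the median mean level was 20.5 RPKM by summed exon length and 57.0 when the same reads were divided by the principal transcript, so levels of different members depend on which length is used. Changes within a gene do not, apart from the added 1.

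Complex II, the succinate dehydrogenase, showed 0 calls among 4 members by limma-trend and limma-voom and 0 at an unadjusted p under 0.05. Limma-trend called 25.4% of all genes tested. SDHA, the flavoprotein, had 35.8, 38.8 and 37.2 RPKM in the controls and 40.5, 35.0 and 35.9 RPKM after treatment. SDHB, the iron-sulfur subunit, had 48.3, 44.0 and 46.4 RPKM against 47.2, 44.3 and 48.2 RPKM. The membrane anchor SDHC had means of 6.87 ± 0.411 and 6.73 ± 0.115 RPKM (SD, n = 3 each). For these 3 the groups overlapped, with log2 differences from -0.02 to 0.01. The other anchor, SDHD, was lower in each treated library, with 26.3, 29.8 and 25.9 RPKM against 23.6, 24.3 and 25.3 RPKM, a log2 difference of -0.15 and an adjusted p of 0.154 (limma-trend). The intervals of all 4 lay within 1.5-fold.

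Complex III, the cytochrome bc1 complex, had 1 call among 9 nuclear members (11.1%, against 25.4% of all genes tested). UQCR11 (chromosome 19, 1597172 to 1605490, minus strand), its smallest subunit, fell from 4.35, 4.802 and 4.91 RPKM to 3.40, 2.92 and 2.64 RPKM. The groups did not overlap, and the log2 change was -0.52 ± 0.12 (SE), with an adjusted p of 0.0208 (limma-trend). The call was lost without control replicate 2 or 3 and without arsenic trioxide replicate 2 or 3, with adjusted p from 0.0512 to 0.0718, and was 0.0667 without both libraries that stand apart. The gene had 125 to 239 reads a library, so its counting error is larger than that of most members.

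The Rieske iron-sulfur protein gene UQCRFS1 had 23.9, 24.7 and 21.5 RPKM in the controls and 22.3, 18.1 and 18.4 RPKM after treatment. Arsenic trioxide replicate 1 lay inside the control range, the log2 difference was -0.25 and the adjusted p was 0.105 (limma-trend), or 0.0407 without that library. UQCRH, the hinge protein that binds cytochrome c1 and the nuclear member of the complex with the highest mean RPKM, had 66.8, 69.6 and 74.6 RPKM against 75.5, 82.1 and 74.8 RPKM. The groups did not overlap, and the adjusted p was 0.161 (limma-trend). Its retrocopy UQCRHL had 1.68 RPKM on average, and because the copies are alike in sequence their reads may have been split between them. UQCR10 had 35.4 ± 5.72 and 31.2 ± 1.98 RPKM (SD, n = 3 each), with overlapping groups.

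Complex IV, cytochrome c oxidase, showed 0 calls among 12 nuclear members by limma-trend and limma-voom, and 1 (COX5B) at an unadjusted p under 0.05. Limma-trend called 25.4% of all genes tested. On the log2(RPKM + 1) scale the fitted differences were all small, from -0.03 to 0.14, and the intervals of all 12 lay within 1.5-fold. For genes near 1 RPKM the added 1 narrows such intervals, so a larger fold change in RPKM is not excluded there. Positive values were found for 10 of 12, for 11 with upper-quartile scaling and for 8 when control replicate 1 or arsenic trioxide replicate 2 was left out. COX5B, which holds a zinc ion on the matrix side, had 43.7, 43.3 and 42.5 RPKM in the controls and 49.1, 48.0 and 45.8 RPKM after treatment. The groups did not overlap, and the log2 difference of 0.14 had an adjusted p of 0.0876 (limma-trend), or 0.0468 with upper-quartile scaling.

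COX4I1, the ubiquitous form of the subunit through which ATP regulates the enzyme, had 38.3, 33.4 and 33.2 RPKM against 38.0, 35.9 and 37.1 RPKM. COX6A1 had 14.2 ± 0.384 and 15.2 ± 0.946 RPKM, COX6C 21.1 ± 1.55 and 22.9 ± 1.62 RPKM, and COX7C, the nuclear member of this complex with the highest mean RPKM over summed exon length, 61.4 ± 2.34 and 62.7 ± 4.38 RPKM (SD, n = 3 each). For each of these 4 genes the groups overlapped. COX6B2, an isoform known from testis, was near the limit of detection, with 0.0779, 0.0812 and 0.116 RPKM in the controls and 0.0118, 0.0247 and 0.0477 RPKM after treatment. The groups did not overlap, but the values rest on 1 to 10 reads a library and the gene was below the filter.

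Complex V had 1 call among 18 nuclear members tested (5.56%, against 25.4% of all genes tested). ATP5G1 (ATP5MC1 in GENCODE; chromosome 17, 48892765 to 48895871, plus strand) encodes subunit c, which forms the rotor ring through which protons pass. It fell from 25.8, 27.4 and 25.5 RPKM to 17.4, 19.2 and 17.7 RPKM, a ratio of 0.691, and every treated library lay below every control. The log2 change was -0.51 ± 0.06 (SE; 95% interval -0.66 to -0.36), with an adjusted p of 0.00265 (limma-trend). Under the 16 alternative settings it was called in 16 of 16, with adjusted p of at most 0.0249. It was the only member called when both libraries that stand apart were left out.

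Subunit c is encoded by 3 nuclear genes whose mature proteins are identical and whose import signals differ, and they were compared after their values were seen. ATP5G2 had 35.8, 36.5 and 31.7 RPKM in the controls and 33.1, 33.7 and 38.9 RPKM after treatment, with overlapping groups and a log2 difference of 0.02. ATP5G3 had 18.9, 20.2 and 20.5 RPKM against 17.6, 17.3 and 16.5 RPKM. Its groups did not overlap, and the log2 difference of -0.20 had an adjusted p of 0.0541 (limma-trend), or 0.04995 with a filter at 1 CPM. The summed level of the 3 genes was 80.5, 84.1 and 77.6 RPKM in the controls and 68.1, 70.3 and 73.2 RPKM after treatment. ATP5G1 supplied 32.1%, 32.6% and 32.8% of that sum in the controls and 25.6%, 27.4% and 24.2% after treatment. Neither the sum nor the share overlapped between groups. By summed exon length, used here, the mean levels over all libraries were 22.18 RPKM for ATP5G1, 34.95 for ATP5G2 and 18.5 for ATP5G3. With the same reads divided by the principal transcript they were 94.48, 71.52 and 22.88, so ATP5G1 stood highest. The size of the sum and of the share, and the order of these genes, therefore depend on the length used. The log2 ratio of ATP5G1 to ATP5G2 was lower by 0.56 on average after treatment and that of ATP5G1 to ATP5G3 by 0.32, without overlap.

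The F1 head, where ATP is made, had 0 calls among its 5 subunit genes ATP5A1, ATP5B, ATP5C1, ATP5D and ATP5E by limma-trend and limma-voom, and 0 at an unadjusted p under 0.05. Limma-trend called 25.4% of all genes tested. The 5 log2 differences were negative, from -0.19 to -0.05, and stayed negative under each of the 16 alternatives. ATP5B, the catalytic beta subunit, had 370.6, 357.1 and 327.3 RPKM in the controls and 353.7, 310.4 and 315.3 RPKM after treatment, which overlap. ATP5A1 had 36.5 ± 1.47 and 33.2 ± 1.89 RPKM, and ATP5D 13.9 ± 1.37 and 12.0 ± 1.31 RPKM (SD, n = 3 each), with adjusted p of 0.167 and 0.220 (limma-trend). Over all 19 nuclear genes counted under complex V the summed level was 716.4 ± 21.3 RPKM in the controls and 670.3 ± 25.0 RPKM after treatment (SD, n = 3 each). By library the sums were 725.9, 731.3 and 692 RPKM against 699, 657.4 and 654.4 RPKM, which overlap. ATP5J2LP (2.98 RPKM on average) and ATP5L2 (0.490 RPKM on average, below the filter) are copies of other ATP5 genes, and their reads may not be separable from those of their parents.

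**Figure D3:**
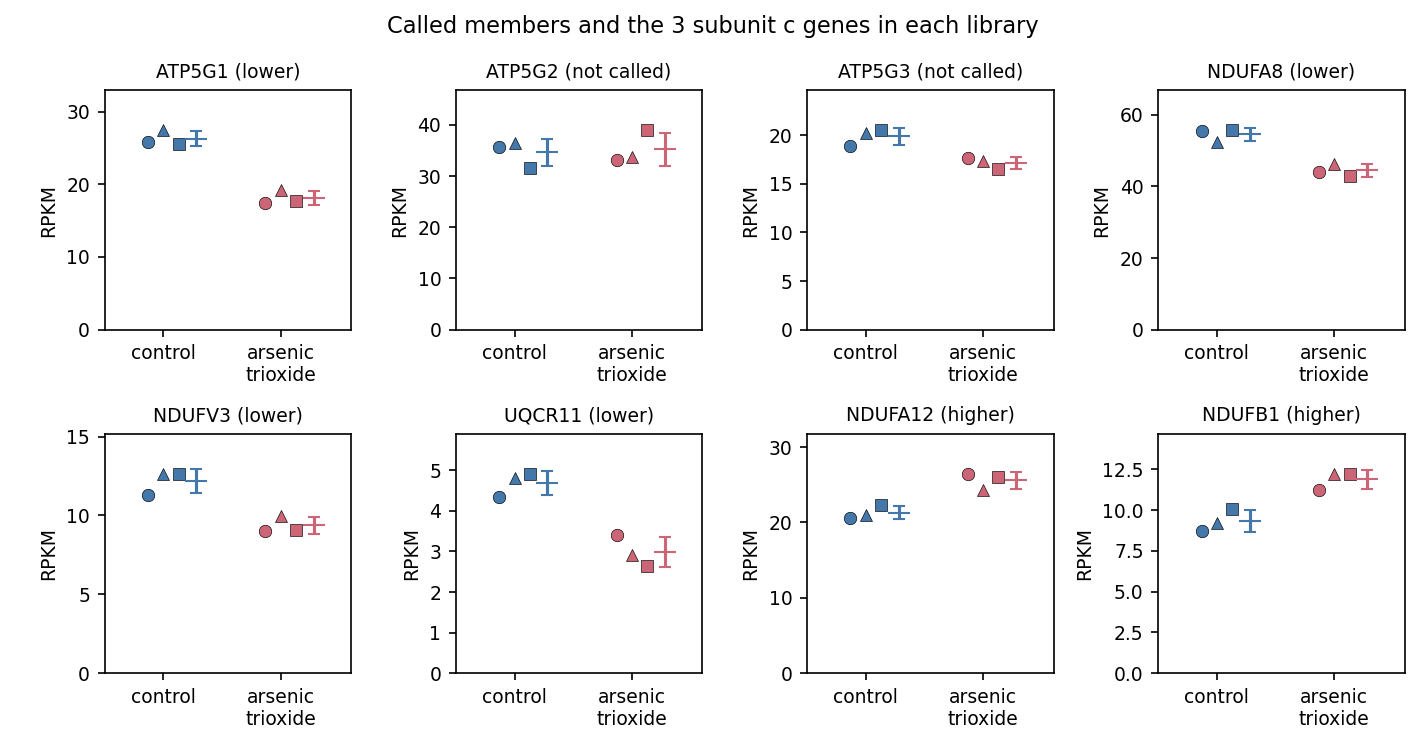
Level (RPKM, axes from 0) in each library of the 6 called members and of the other 2 subunit c genes, ATP5G2 and ATP5G3; circles, triangles and squares are replicates 1, 2 and 3, and bars show the mean ± SD (n = 3). Control (blue) and arsenic trioxide (red) do not overlap except for ATP5G2.

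The balance between the genomes did not separate the groups. The nuclear members summed to 2208, 2275 and 2269 RPKM in the controls and 2255, 2207 and 2142 RPKM after treatment. The ratio of mitochondrial to nuclear sums was 7.32, 7.86 and 8.93 in the controls and 8.03, 8.88 and 8.53 after treatment, so the treated values lay within the control range. Without control replicate 3 the treated-to-control quotient of this ratio was 1.12, and without control replicate 1 it was 1.01.

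The letters known for the regulators of this gene set were looked for in the promoters of the nuclear members. RefSeq promoters (GRCh38.p14, 250 bases before to 50 after a start) were matched for 64 of the 82 nuclear members. The NRF1 letters GCGCATGCGC were found on either strand in 4 of 64 (6.25%), against 1.36% of all 27305 promoters, and the YY1 letters AAGATGGCG in 8 of 64 (12.5%), against 1.85%. The ETS letters CCGGAAG occurred in 29.7% of members and 10.7% of all promoters. The CCAAT box, letters CCAAT, occurred in 34.4% and 35.7%. A match is only a match of letters and no measure of binding, and the searched motifs do not contain one another.

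The members with the NRF1 letters are shown because the match lies in 1 called gene, NDUFA8, and 3 that were not called. Capitals mark the motif, and each window reads 5′ to 3′ on the strand of the gene.
ATP5C1, chr10:7788145-7788174, plus strand: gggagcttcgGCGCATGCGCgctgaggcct
NDUFA8, chr9:122159764-122159793, minus strand: gttgccggatGCGCATGCGCaggcgccgtg
NDUFB4, chr3:120596167-120596196, plus strand: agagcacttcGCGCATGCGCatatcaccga
SDHD, chr11:112086753-112086782, plus strand: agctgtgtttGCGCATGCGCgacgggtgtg
The fitted log2 differences of these 4 genes ran from -0.29 (NDUFA8) to -0.02 (NDUFB4).

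The members with the YY1 letters are shown because the match sits at nearly the same place in most of them. In 8 of 8 it was on the strand of the gene, and in 7 of 8 it began 11 to 26 bases after the start. The letters searched contain ATG themselves, so every match spans one, and whether it is a start codon was not tested.
ATP5J, chr21:25735093-25735121, minus strand: aggcgaagaaAAGATGGCGgaggctgtgc
NDUFA6, chr22:42090729-42090757, minus strand: atgctttggcAAGATGGCGgggagcggcg
NDUFA7, chr19:8321343-8321371, minus strand: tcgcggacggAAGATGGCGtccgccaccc
NDUFA9, chr12:4649114-4649142, plus strand: attgtgggaaAAGATGGCGgctgccgcac
NDUFS4, chr5:53560650-53560678, plus strand: tgcctgcagcAAGATGGCGgcggtgtcaa
NDUFS7, chr19:1383914-1383942, plus strand: ggccgaggccAAGATGGCGgtgctgtcag
SDHB, chr1:17054004-17054032, minus strand: gtcaggagccAAGATGGCGgcggtggtcg
UQCRC1, chr3:48609605-48609633, minus strand: ctgcagctggAAGATGGCGgcgtccgtgg
The exception is ATP5J, whose match lies before the start. Of the 7 tested among these 8 genes, 0 were called by limma-trend or limma-voom, with log2 differences from -0.13 (NDUFA9) to 0.12 (NDUFA6).

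The promoter of ATP5G1, the member whose fall held under every alternative run, is shown up to the GENCODE start of the gene. It held 3 CCAAT boxes, in capitals, and neither the NRF1, YY1 nor ETS letters in the stretch printed.
ATP5G1, chr17:48892537-48892764, plus strand: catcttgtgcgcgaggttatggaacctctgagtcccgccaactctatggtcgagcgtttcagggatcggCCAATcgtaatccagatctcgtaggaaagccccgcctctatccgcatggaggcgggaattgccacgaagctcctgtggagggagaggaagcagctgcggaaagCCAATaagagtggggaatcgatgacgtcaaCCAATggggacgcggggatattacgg
Of the 6 called members, 4 had a CCAAT box in the window searched: ATP5G1 and NDUFV3, which fell, and NDUFB1 and NDUFA12, which rose. These letters are common, in 34.4% of the matched members and 35.7% of all promoters, and a link to the changes was not tested.

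Genes that regulate, copy and assemble the respiratory chain included larger fitted changes than any of its subunits. Among 11 tested nuclear regulators of respiratory genes, 6 fell and 2 rose (72.7% called), with a median log2 change of -0.19. Over all genes tested 13.4% fell and 12.0% rose (25.4% called), and the median was -0.003. Of all genes at 10 RPKM or more on average, 35.9% were called. PPRC1, a PGC-1-related coactivator, fell from 56.4, 53.6 and 55.2 RPKM to 28.8, 27.9 and 28.2 RPKM, a log2 change of -0.94 with an adjusted p of 0.000229 (limma-trend). PPARGC1B, another member of that family, fell from 15.2 ± 1.21 to 8.32 ± 0.2997 RPKM and ESRRA, the nuclear receptor it coactivates, from 14.5 ± 0.634 to 8.30 ± 0.360 RPKM (SD, n = 3 each). YY1 (log2 change -0.44), NRF1 (-0.37) and TFAM (-0.19) also fell, and SP1 (0.39) and CREB1 (0.29) rose. The calls of YY1 and SP1 held under 16 of 16 alternatives, those of NRF1, CREB1 and TFAM under 8, 9 and 4. NRF1 and CREB1 were lost without any 1 control and without arsenic trioxide replicate 1 or 2 (adjusted p from 0.0560 to 0.113), and TFAM without any 1 library (0.0507 to 0.128). GABPA, the ETS-family subunit of GABP, had 9.22 ± 0.510 and 9.09 ± 0.503 RPKM (SD, n = 3 each), and PPARGC1A was not analysed here. With any 1 library left out, 4 or 5 of these regulators were called lower, and 4 without both libraries that stand apart, while the count higher became 1 wherever CREB1 was lost.

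Of 31 genes for mitochondrial DNA transcription and RNA handling, 14 (45.2%) were called, all lower, with a median log2 change of -0.23. Of all genes tested, 25.4% were called in either direction and 13.4% lower, and of those at 10 RPKM or more on average 35.9% were called. C10orf2, which encodes the Twinkle helicase of mitochondrial DNA replication, fell from 35.7, 31.3 and 32.5 RPKM to 16.7, 15.6 and 13.4 RPKM, a log2 change of -1.08 (adjusted p of 0.000857, limma-trend). TFB2M, a transcription initiation factor of the mitochondrial DNA, fell from 20.4 ± 1.27 to 10.4 ± 1.10 RPKM, and POLRMT, the polymerase itself, from 12.2 ± 1.38 to 6.62 ± 1.15 RPKM (SD, n = 3 each). FASTKD3 (log2 change -0.77), an RNA-binding factor of mitochondria, TRMT10C (-0.83), part of the enzyme that frees tRNAs from the primary transcript, and POLG2 (-0.92), the accessory subunit of the DNA polymerase, fell as well. LRPPRC, which holds mitochondrial mRNAs stable, did not pass, at 91.6 ± 1.45 and 87.6 ± 2.70 RPKM (SD, n = 3 each). The count of 14 became 9 without control replicate 3 or without both libraries that stand apart. In the same libraries the mitochondrial mRNAs overlapped between the groups, as given above.

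Of 22 assembly factors for complex IV, 6 fell and 2 rose (36.4%), with a median log2 change of -0.19. Among all genes at 10 RPKM or more on average, a level that not all of these factors reached, 35.9% were called. The shares called were 21.1% for complex I, 25.0% for complex II and 16.7% for complex III factors, against 25.4% of all genes tested, so that these 3 lists lay near or below that share. For complex IV the count higher was 1 without control replicate 2, without arsenic trioxide replicate 1 and without both libraries that stand apart. SCO1, a copper chaperone, fell from 11.5 ± 0.726 to 6.96 ± 0.283 RPKM, COA4 from 39.4 ± 2.98 to 26.0 ± 1.22 RPKM, and TMEM177, which acts on the maturing COX2 subunit, from 8.32 ± 0.901 to 4.26 ± 0.212 RPKM (SD, n = 3 each). Of 19 factors for complex I, 4 fell: TMEM261 (log2 change -0.62), ACAD9 (-0.29), TMEM70 (-0.37) and NDUFAF4 (-0.35). TMEM70 is also counted among the 3 tested factors for complex V, where it was the only call (33.3%). ATP5SL, counted by symbol under complex V, is among the 19 factors for complex I. Leaving out any 1 control brought the count for complex I to 2, as did leaving out both libraries that stand apart. ACAD9 was lost without control replicate 2 or 3 (adjusted p of 0.0505 and 0.0544, limma-trend), TMEM70 without control replicate 1 or 3 (0.0519 and 0.0647), and NDUFAF4 without control replicate 1 or 2 (0.0523 and 0.0566). BCS1L, which inserts the Rieske protein into complex III, fell from 21.4 ± 1.502 to 15.8 ± 1.32 RPKM (SD, n = 3 each), a log2 change of -0.42, and its adjusted p was 0.0786 without both libraries that stand apart. It was the only one of 6 complex III factors called. For complex II, 1 of 4 factors fell, SDHAF1 (-0.69), and it was lost without any 1 of the 3 controls and without arsenic trioxide replicate 1 or 2, with adjusted p from 0.0552 to 0.0949.

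Among 10 genes of electron entry and mobile carriers, 2 rose and 1 fell (30%), near the 25.4% called over all genes tested. SQRDL, the sulfide:quinone oxidoreductase, rose from 3.93, 4.10 and 4.07 RPKM to 8.50, 8.27 and 10.5 RPKM, a log2 change of 1.00 (adjusted p of 0.00175, limma-trend). DHODH, which links pyrimidine synthesis to ubiquinone, fell from 6.08, 5.95 and 5.60 RPKM to 2.94, 2.96 and 3.46 RPKM, a log2 change of -0.74 (adjusted p of 0.00395, limma-trend). Neither gene overlapped between groups, and both calls held under 16 of 16 alternatives. COQ10B rose from 9.66 ± 0.662 to 12.5 ± 0.580 RPKM (SD, n = 3 each), but not without control replicate 2 or 3 or arsenic trioxide replicate 2 (adjusted p from 0.0653 to 0.0707). CYCS, cytochrome c, had 57.6 ± 6.21 and 47.4 ± 2.33 RPKM (SD, n = 3 each) with an adjusted p of 0.0535 (limma-trend), or 0.0306 with limma-voom. Of 18 tricarboxylic acid cycle and pyruvate dehydrogenase genes, 3 fell (16.7%), near the 13.4% of all genes tested that fell, with a median log2 change of -0.01. DLAT, the E2 component of pyruvate dehydrogenase, fell from 43.1 ± 1.07 to 30.8 ± 0.484 RPKM (SD, n = 3 each) and kept its call under 16 of 16 alternatives. OGDH (-0.28) and PDHB (-0.24) kept theirs under 9 and 7 of 16. OGDH was lost without each control and without arsenic trioxide replicate 1 or 2, and PDHB without control replicate 2 or 3 and without each treated library, with adjusted p up to 0.0783 and 0.135. Citrate synthase (CS) had 71.2 ± 4.04 and 68.6 ± 7.44 RPKM (SD, n = 3 each).

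**Figure D4:**
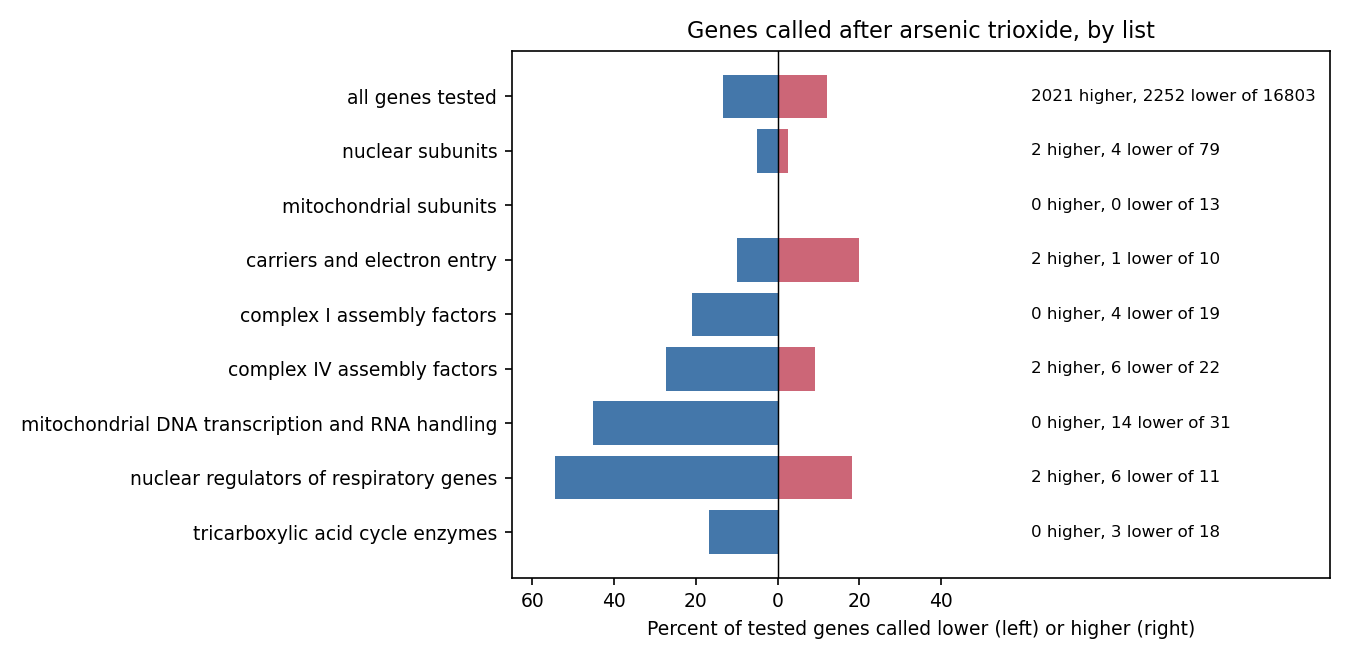
Percent of the tested genes of each list called lower (blue, left) or higher (red, right) after arsenic trioxide by limma-trend at an adjusted p of 0.05, with the counts written beside the bars. The nuclear subunits (2 higher, 4 lower of 79) and mitochondrial subunits (0 of 13) have shorter bars than all genes tested, and the regulators (2 higher, 6 lower of 11) and the mitochondrial transcription list (14 lower of 31) have longer ones; TFAM is in both of the latter.

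In the authors' deposited table, 5 of the 95 members had an adjusted p under 0.05, 1 higher and 4 lower, against 25.3% of all genes with a value there. All 5 were also called here in the same direction: ATP5G1, NDUFV3, UQCR11, NDUFA8 and NDUFB1. The log2 fold change of ATP5G1 in the authors' deposited table was -0.55, with an adjusted p of 1.9e-06.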

How the data were processed

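Total RNA depleted of ribosomal RNA was made into libraries by an unstranded protocol, per the labels. Alignment and counting tools, per the submitters' processing notes, include HISAT2 2.1.0, HTSeq and DESeq2, with hg38 as the build and no parameters stated. The file headers mark the libraries as cleared of duplicates. The authors deposited RPKM for 6 libraries and, per the file headers, their own comparison of the groups as a mean normalized signal, log2 fold changes and their errors, test scores, and raw and adjusted p-values. From the RPKM, whole reads were recovered within 0.01 read for 93.0% of genes from the exon length in GENCODE 29 (GRCh38) and for 100.00% once the deposited mean signal settled the length. The sources used here do not say whether 1 read is a single read or a pair. No listed gene had fewer than 21 reads over the 6 libraries. The table had 0 value columns that could not be mapped to a sample.

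The test was limma 3.58.1 in trend mode (R 4.3.3), run on log2(RPKM + 1) of genes averaging 1 RPKM or more, with treatment as the sole term, Benjamini-Hochberg adjustment over all 16803 genes and a threshold of 0.05. Fold changes on this scale understate the change of low genes. No test was run over the members as a set. The members and the gene lists were chosen with earlier results of these data known. The genes named are the mitochondrial members, each called member, the 4 nuclear members with the smallest p and the most abundant one in each complex, members below the filter, and up to 3 called genes of each list. Other genes were named after their values were seen, or by the promoter search. Values of 1 member and 1 marker gene are not reported here.

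Between libraries of a group, chi-square per degree of freedom was 5.48 to 13.5, so no library repeats another. On simulated reads (16788 genes tested), limma-trend recovered 18.4% of genes changed 1.5-fold and 77.1% of those changed 2-fold, with 6 false calls among 96, and limma-voom 51.0% and 83.3%, with 7 among 120. Only 44 to 49 tested genes were changed at each fold, and the same spread was set for every gene, unlike in these data. Alternatives were pseudocounts of 0.1 and 5, no filter and a filter at 1 CPM, 3 scalings, limma-voom on recovered reads with TMM, the replicate number as a block, each library left out, and both libraries that stand apart left out, which was chosen after seeing the data, as was recounting the gene lists under each setting. Coordinates count from 1.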

Additional observations from a re-analysis of the deposited data

How the results depend on the processing

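ATP5G1 was called under 16 of 16 alternatives and NDUFA8 under 15. The other 4 called members depended on single libraries. Members called higher were 2 as reported, 4 with upper-quartile scaling, 0 with the replicate block, 0 to 2 with 1 library left out, and 0 with both libraries that stand apart left out, a setting chosen after seeing the data. Members called lower were 4 as reported, 6 with a filter at 1 CPM, 2 to 4 with 1 library left out, and 1 with both left out. With limma-voom, 3 members were called higher, 2 of them nuclear. In the other settings the nuclear members gave the same counts as all members. For the mitochondrial members the count higher was 1 with limma-voom and 0 otherwise, and the count lower was 0 throughout. Over all genes, 1331 to 1525 were called higher and 1427 to 1908 lower with 1 library left out, and 1200 and 1484 with both left out. The cause of these shifts, beyond the smaller number of libraries, was not tested.

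The correlations of the deviations of same-numbered libraries were -0.085, 0.148 and -0.083. Those of differently numbered libraries ran from -0.158 to 0.221. With 3 libraries a group these values cannot decide whether the numbers pair the samples, and the labels do not say. With the replicate block, 3 members were called (ATP5G1, NDUFA8 and NDUFV3) and 18.3% of all genes, and the adjusted p of UQCR11, NDUFA12 and NDUFB1 became 0.0629, 0.0606 and 0.0542. Sums by genome kept their ratios within 1 SD: 0.978 to 1.10 for the mitochondrial and 0.966 to 0.991 for the nuclear members with 1 library left out. In simulated data limma-trend recovered 18.4% of 1.5-fold changes. Far fewer genes were changed there than were called here, which makes the adjusted threshold stricter, so this share does not carry over. In these data the 95% interval on the log2(RPKM + 1) scale lay within 1.5-fold for 93.5% of members. That limit is easier to meet for genes near 1 RPKM, and smaller differences may be missed.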
